A study of Mus musculus with 6 samples.

Results

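The genes examined here charge tRNAs with amino acids or make amino acids, and they were chosen by symbol from a list of 44 genes, all of which were found among the 48526 genes of the authors' deposited table. They comprise 15 mitochondrial aminoacyl-tRNA synthetases (symbols ending in 2), 20 cytosolic synthetases, 8 enzymes that make asparagine, serine, glycine or proline, and the transcription factor gene Atf4. RNA came from forebrain cells of mice at postnatal day 6 sorted for YFP fluorescence and for the nuclear dye Hoechst to collect oligodendrocyte precursor cells (OPCs), the dividing glia that give rise to myelin-forming cells. The Ep400 cko group (3 samples) carried CNP1::Cre, the conditional Rosa26stopflox-YFP reporter and conditional Ep400, and the ctrl group (3 samples) carried CNP1::Cre and the same reporter, so that both groups express Cre from a promoter active in the oligodendroglial lineage, that of Cnp. All mice had a mixed 129SvJ/C57Bl/6J background, and Ep400 is the ATPase of a chromatin remodelling complex. The comparison asks which transcripts differ when these cells lack Ep400.

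A synthetase joins its amino acid to the matching tRNA, and translation in the cytosol and in mitochondria mostly uses separate synthetases that are all encoded in the nucleus. Gars and Kars are known to serve both compartments, and mitochondria charge their glutamine tRNA through Ears2 and an amidotransferase. ATF4 is a transcription factor made when the kinases of the translation factor eIF2 sense amino acid shortage or other stress, and its known targets include Asns, the serine synthesis genes, Pycr1 and many cytosolic synthetases. It acts at C/EBP-ATF response elements, whose core reads TGATGNAA.

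Promoters of the members were searched for this core on both strands, over 300 bases from 250 before the annotated start to 50 after it. The 5 members with the lowest fold changes, Pycr1, Asns, Yars, Tars and Gars, all held it, although Pycr1 alone of them passed the authors' test. Kars, the next, held none, so that the cut at 5 falls just before the first member without a match. Promoters of Lars and Vars, which follow, were not used here. Aars and Iars, the other members with a match, ranked 10 and 19 from the lowest. Of the 36 members with a promoter in the RefSeq set (GRCm38.p6), 7 held a match (19.4%), against 4.51% of all 27025 genes with a promoter and 2.95% of the 13670 that were tested in the comparison. The 250 bases before the start are shown for the proline synthesis gene Pycr1, the asparagine synthetase gene Asns and the mitochondrial methionyl-tRNA synthetase gene Mars2, which are the lowest, the second lowest and the highest member in fold change. Capitals mark the match, and each promoter is written in the direction of its gene. They lie at chr11:120643749-120643998 (minus strand), chr6:7693210-7693459 (minus strand) and chr1:55236927-55237176 (plus strand).
Pycr1: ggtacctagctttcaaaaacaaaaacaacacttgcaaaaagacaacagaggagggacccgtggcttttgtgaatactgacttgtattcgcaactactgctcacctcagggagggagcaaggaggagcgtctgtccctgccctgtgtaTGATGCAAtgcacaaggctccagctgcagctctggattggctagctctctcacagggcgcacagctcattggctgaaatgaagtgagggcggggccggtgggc
Asns: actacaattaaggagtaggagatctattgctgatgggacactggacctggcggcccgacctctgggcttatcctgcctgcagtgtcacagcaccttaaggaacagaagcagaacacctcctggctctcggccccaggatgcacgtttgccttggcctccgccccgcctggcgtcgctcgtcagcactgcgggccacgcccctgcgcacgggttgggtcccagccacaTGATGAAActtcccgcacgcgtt
Mars2: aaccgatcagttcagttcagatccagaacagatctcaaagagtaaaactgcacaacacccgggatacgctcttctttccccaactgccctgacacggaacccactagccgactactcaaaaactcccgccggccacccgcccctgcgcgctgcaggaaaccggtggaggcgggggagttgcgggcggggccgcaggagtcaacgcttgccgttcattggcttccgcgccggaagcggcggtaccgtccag

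A match in each of the 5 cytosolic synthetases is shown with the bases around it, in the direction in which the core reads TGATGNAA, to set it beside those of Pycr1 and Asns. They lie at chr8:111033840-111033869 for Aars (minus strand), chr6:55037960-55037989 for Gars (minus strand), chr13:49682126-49682155 for Iars (minus strand), chr15:11399655-11399684 for Tars (plus strand) and chr4:129189895-129189924 for Yars (plus strand).
Aars, 9 bases after the start: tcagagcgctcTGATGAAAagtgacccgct
Gars, 30 bases before the start: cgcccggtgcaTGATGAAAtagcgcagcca
Iars, 7 bases after the start: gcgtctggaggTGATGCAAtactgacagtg
Tars, 15 bases before the start: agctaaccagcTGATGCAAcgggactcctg
Yars, 3 bases after the start: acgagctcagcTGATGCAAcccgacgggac

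In the Ep400 cko samples 1 member rose, the mitochondrial synthetase gene Mars2, 1 member fell, the proline synthesis gene Pycr1, and 42 did not pass the authors' test at an adjusted p under 0.05. In the authors' deposited table, 20101 genes were tested and 12.2% of them passed (7.64% higher and 4.61% lower), so that the share of members that passed, 4.55%, was under the background. Of the mitochondrial synthetases 13 of 15 had a fold change above 0, against 3 of 20 cytosolic synthetases. The median log2 fold change was 0.10 for the mitochondrial and -0.15 for the cytosolic synthetases, and it was -0.0025 over all tested genes. For 41 of the 44 members the 95% interval lay within 1 of 0 on the log2 scale, and the exceptions were Pycr1, Asns and Mars2. The deposited table holds no values per sample, so each gene is given by its mean normalised read count over all 6 libraries, its log2 fold change of Ep400 cko over ctrl with SE, and its test. Whether fewer cells of a type or less RNA per cell underlies a difference cannot be told apart in such bulk samples.

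**Figure D1:**
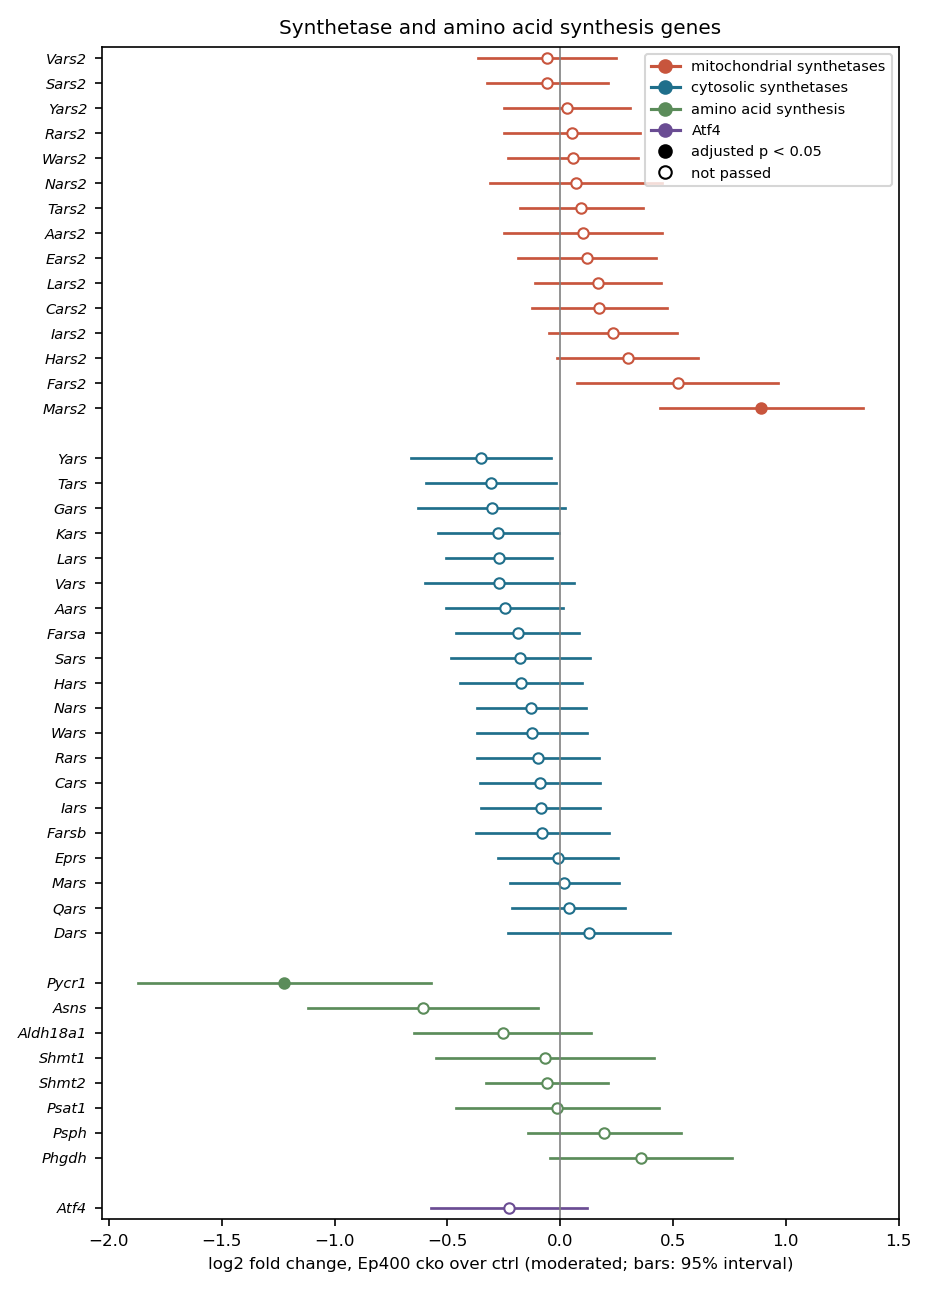
Log2 fold change of Ep400 cko over ctrl for each of the 44 members in the authors' deposited table, with 95% intervals from the deposited standard errors (3 samples a group). Filled points passed an adjusted p of 0.05, which were Mars2 on the upper side and Pycr1 on the lower side.

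Ep400 itself stood at 0.01 ± 0.17 (SE, log2; adjusted p = 0.97) in the authors' deposited table, a count over the whole gene that does not resolve the deleted part and so checks no label. The means of the table sum to 80407433 normalised reads per library. Among markers of the cells that the sort could hold, 15 of 20 astrocyte markers rose (median 0.98) and 9 of 12 mural and fibroblast markers fell (median -0.93). Of 12 microglia markers 3 fell (median -0.44), of 12 endothelial markers 2 fell (median -0.30), and of 16 neuron markers 3 rose (median 0.21). Of 14 OPC markers 2 rose and 1 fell (median -0.37), and of 12 tested myelin markers 1 rose and 1 fell (median -0.80). Without the length and GC trends 16 astrocyte markers rose, 10 mural and fibroblast and 2 microglia markers fell, 2 neuron markers rose, and 0 endothelial, 0 OPC and 0 myelin markers fell. With the level trend removed, 5 microglia markers fell and 13 astrocyte markers rose (median 0.90). With no filter on low genes, 14 astrocyte markers rose and 7 mural and fibroblast markers fell. No marker of these lists was at 0, the OPC genes Pdgfra and Olig2 were both detected, and levels of each list per group were not analysed here.

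The members differed in level before any comparison of the groups. Per kb of exon, the mitochondrial synthetases had 172 to 969 normalised reads (median 447) and the cytosolic synthetases 777 to 2809 (median 1642) as means over all libraries. Each mitochondrial synthetase lay below its cytosolic partner, with a ratio between 0.0657 for Nars2 over Nars and 0.578 for Tars2 over Tars. The highest levels of all members were those of Phgdh, the first enzyme of serine synthesis, with 7375 normalised reads per kb, of Atf4 with 6963 and of Psat1, the second enzyme of that route, with 5751. Pycr1 with 362, Asns with 428 and Shmt1 with 431 normalised reads per kb were the lowest of the amino acid synthesis genes.

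**Figure D2:**
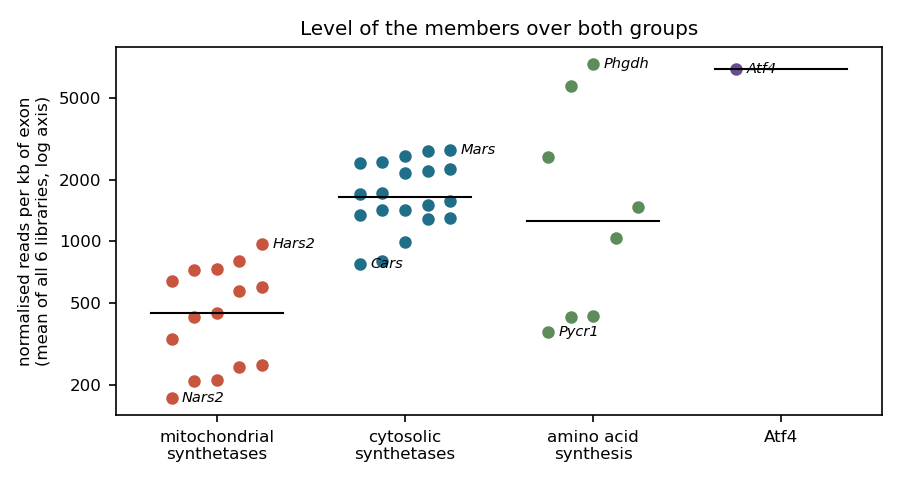
Mean normalised reads per kb of exon over all 6 libraries, on a log axis, for each member, with the median of each class as a bar. The mitochondrial synthetases run from 172 to 969 and the cytosolic synthetases from 777 to 2809.

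Among the mitochondrial synthetases Mars2, which charges the methionine tRNA of mitochondria, rose by 0.89 ± 0.23 on the log2 scale (adjusted p = 0.0029, the authors' deposited table), a fold of 1.85 with a 95% interval of 1.36 to 2.53. Its mean was 2819 normalised reads. Mars2 lies on chromosome 1 from 55237177 to 55248470 (plus strand, GRCm38), consists of 1 exon of 11.3 kb with a GC content of 38.8%, and shares no exon bases with another annotated gene. Once its Wald statistic was freed of the trends that transcript length and GC content show over all genes, it stood at 0.54 and did not pass (adjusted p = 0.11). Fars2, the mitochondrial phenylalanyl synthetase gene, stood at 0.52 ± 0.23 and did not pass (adjusted p = 0.12, the authors' deposited table). Hars2 at 0.30 ± 0.16 and Iars2 at 0.24 ± 0.15 came next and did not pass (adjusted p = 0.22 and 0.31, the authors' deposited table).

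The other 11 mitochondrial synthetases lay between -0.06 and 0.17 in the authors' deposited table, all with an adjusted p from 0.49 up. Lars2 at 0.17 ± 0.14 and Cars2 at 0.17 ± 0.15 were at the upper end, and Vars2 at -0.06 ± 0.16 and Sars2 at -0.06 ± 0.14 at the lower end in the authors' deposited table. Without the trends in length and GC content, Sars2 stood at 0.04. None of the 15 fell by the authors' DESeq2 test, and at an unadjusted p under 0.05 there were 2 higher and 0 lower. The 2 make 13.3% of the class, near the 14.2% of all tested genes that were higher at that unadjusted p.

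None of the 20 cytosolic synthetases passed the authors' DESeq2 test, while 4 were lower and 0 higher at an unadjusted p under 0.05. Over all tested genes 11.4% were lower and 14.2% higher at that unadjusted p. The 4 were Yars at -0.35 ± 0.16, Tars at -0.31 ± 0.15, Kars at -0.27 ± 0.14 and Lars at -0.27 ± 0.12 in the authors' deposited table, with adjusted p between 0.12 and 0.18. Each charges the amino acid whose letter opens its symbol: tyrosine, threonine, lysine (K) and leucine. Gars, the glycyl synthetase gene that serves both compartments, stood at -0.30 ± 0.17 and Vars, for valine, at -0.27 ± 0.17 (adjusted p = 0.23 and 0.31, the authors' deposited table). Aars, the alanyl synthetase gene, with a mean of 14593 normalised reads, stood at -0.25 ± 0.13 (adjusted p = 0.22, the authors' deposited table).

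The other 10 cytosolic synthetases with negative values lay between -0.19 for Farsa and -0.01 for Eprs in the authors' deposited table. The 3 above 0 were Dars at 0.13 ± 0.18, Qars at 0.04 ± 0.13 and Mars at 0.02 ± 0.12 in the authors' deposited table. Across the class, the widest limits of the 95% intervals were -0.66 for Yars and 0.49 for Dars on the log2 scale.

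Each mitochondrial synthetase was then set beside the cytosolic synthetase for the same amino acid, with Ears2 beside Eprs and Fars2 beside both Farsa and Farsb, the subunits of the cytosolic phenylalanyl enzyme. In all 16 comparisons the mitochondrial gene had the higher fold change in the authors' deposited table, with differences from 0.12 (Sars2 minus Sars) to 0.87 (Mars2 minus Mars) on the log2 scale and a median of 0.33. The difference for Lars2 and Lars was 0.44, from 0.17 ± 0.14 for Lars2 and -0.27 ± 0.12 for Lars in the authors' deposited table. That for Tars2 and Tars was 0.40, from 0.09 ± 0.14 for Tars2 and -0.31 ± 0.15 for Tars. Yars2 and Yars differed by 0.38, from 0.03 ± 0.14 for Yars2 and -0.35 ± 0.16 for Yars. The 16 comparisons come from the same 6 libraries and are not independent, no test of the class difference was made, and the order held in all 16 with length and GC trends removed and with the trend in expression level removed, the alternative settings that can change it. The classes differ in level, and with the level trend removed the medians were 0.12 for the mitochondrial and -0.16 for the cytosolic synthetases.

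**Figure D3:**
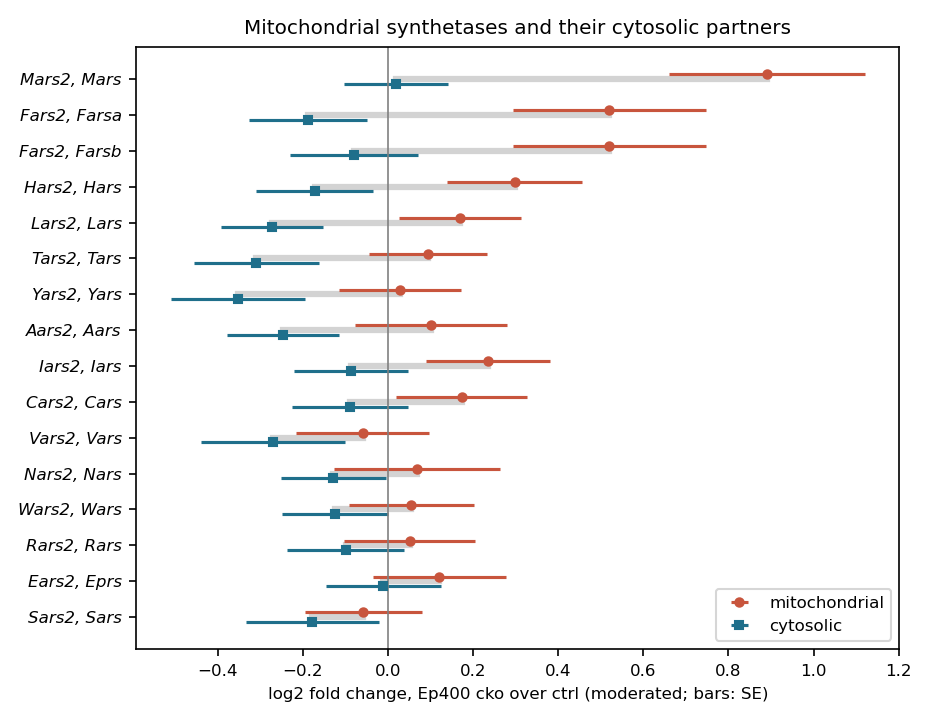
Log2 fold change of Ep400 cko over ctrl with SE for each mitochondrial synthetase (circles) and its cytosolic partner (squares) in the authors' deposited table, ordered by their difference. The circle lies to the right of the square in all 16 rows, by 0.12 to 0.87.

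Other genes of tRNA charging, from a list of 16, gave 1 that fell and 15 that did not pass, with a median of -0.01. Eef1e1, a scaffold subunit of the cytosolic multisynthetase complex, fell by 0.46 ± 0.14 on the log2 scale (adjusted p = 0.017, the authors' deposited table). The scaffold genes Aimp1, which had the most reads of the list, and Aimp2 stood at -0.33 ± 0.15 and -0.24 ± 0.18 and did not pass (adjusted p = 0.14 and 0.43, the authors' deposited table). The mitochondrial synthetase gene Pars2, which is no member, stood at 0.04 ± 0.21 (adjusted p = 0.93, the authors' deposited table).

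Proline synthesis held the member with the lowest fold change. Pycr1, a mitochondrial enzyme of the last step, fell by 1.22 ± 0.33 on the log2 scale (adjusted p = 0.0050, the authors' deposited table), a fold of 0.429 with a 95% interval of 0.273 to 0.672. Its mean was 1426 normalised reads, and its SE was the largest of the 44 members. Pycr1 passed under each of the 7 alternative settings, with values from -1.22 to -1.12. A paralog, listed as Pycrl, stood at -0.09 ± 0.20 (adjusted p = 0.82, the authors' deposited table).

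Upstream of these, Aldh18a1, which makes the precursor pyrroline-5-carboxylate from glutamate, stood at -0.26 ± 0.20 (adjusted p = 0.45, the authors' deposited table). Oat, which makes the same precursor from ornithine, stood at 0.53 ± 0.23 and did not pass either (adjusted p = 0.11). Prodh, which opens the breakdown of proline, rose by 0.80 ± 0.22 (adjusted p = 0.0072, the authors' deposited table). In the same samples mural and fibroblast markers fell, 9 of 12, in the direction of Pycr1, and astrocyte markers rose, 15 of 20, in the direction of Prodh. The part of these cells in either result was not tested.

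Asns, which makes asparagine from aspartate, stood at -0.61 ± 0.26 in the authors' deposited table, with a fold of 0.657 and a 95% interval of 0.461 to 0.935, and did not pass (adjusted p = 0.11). Its adjusted p ran from 0.093 to 0.16 over the alternative settings that refit it or adjust it anew. Asrgl1, an enzyme that breaks asparagine down, rose by 0.61 ± 0.20 (adjusted p = 0.028, the authors' deposited table), but no longer passed without the length and GC trends (adjusted p = 0.052).

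The 3 enzymes of serine synthesis from glycolysis did not pass. Phgdh stood at 0.36 ± 0.21, Psat1 at -0.01 ± 0.23 and Psph at 0.20 ± 0.17 (adjusted p = 0.27, 0.98 and 0.52, the authors' deposited table). The 95% interval of Psat1 ran from -0.46 to 0.44 and that of Phgdh from -0.05 to 0.76 on the log2 scale. Shmt1 and Shmt2, which turn serine into glycine in the cytosol and in mitochondria, stood at -0.07 ± 0.25 and -0.06 ± 0.14 (adjusted p = 0.90 and 0.84, the authors' deposited table). Phgdh, Psat1 and Psph are known to be strongly expressed in astrocytes and radial glia, and the 20 astrocyte markers had a median of 0.98 in these samples, above each of the 3. The part of astrocytes in the values of these 3 genes was not tested.

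Downstream of serine and glycine, 3 of 15 genes of folate metabolism and glycine cleavage rose, 1 fell and 11 did not pass, with a median of 0.05. Gcsh and Gldc, subunits of the glycine cleavage system, rose by 0.68 ± 0.14 and 0.90 ± 0.27 (adjusted p = 0.00016 and 0.011, the authors' deposited table). Aldh1l1, a folate enzyme that is also a defining astrocyte marker and the most abundant gene of the list, rose by 1.03 ± 0.29 (adjusted p = 0.0068, the authors' deposited table). Mthfd1l, which releases formate from mitochondria, fell by 0.49 ± 0.14 (adjusted p = 0.012, the authors' deposited table). Mthfd2, the enzyme before it and an ATF4 target, stood at -0.28 ± 0.23 (adjusted p = 0.47, the authors' deposited table).

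Of 21 other genes of amino acid metabolism 7 rose, 2 fell and 12 did not pass, with a median of 0.27. Cbs, which joins serine to homocysteine on the way to cysteine, rose by 1.06 ± 0.27 (adjusted p = 0.0023, the authors' deposited table). Gpt2, which makes alanine, rose by 0.76 ± 0.20 (adjusted p = 0.0037, the authors' deposited table). Glul, the glutamine synthetase gene of astrocytes and the most abundant of the list, rose by 0.76 ± 0.26 (adjusted p = 0.030, the authors' deposited table), but no longer passed with the level trend removed (adjusted p = 0.084). Bcat1, which transfers the amino group of branched-chain amino acids, fell by 0.84 ± 0.24 (adjusted p = 0.0096, the authors' deposited table). The upward direction of these genes is that of the 15 astrocyte markers that rose, and the part of astrocytes in it was not tested.

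Atf4 itself stood at -0.23 ± 0.18 (adjusted p = 0.44, the authors' deposited table), with a mean of 16420 normalised reads and a 95% interval of -0.57 to 0.12 on the log2 scale. Its message does not report its protein, which is set at translation. Of 29 tested other ATF4 response genes 4 rose, 4 fell and 21 did not pass, with a median of -0.12. The lists share genes, so these counts are not separate from those above. Gpt2, which rose, and Mthfd1l, which fell, are among the genes counted again here. Nupr1, a stress-induced chromatin factor gene, fell by 1.04 ± 0.24 and Cebpb, which encodes a partner of ATF4, by 0.79 ± 0.20 (adjusted p = 0.000625 and 0.0029, the authors' deposited table). Slc7a11, which imports cystine in exchange for glutamate, rose by 1.03 ± 0.28 (adjusted p = 0.0047, the authors' deposited table), but no longer passed without the length and GC trends (adjusted p = 0.094). Slc1a4, a transporter of serine and other neutral amino acids and the most abundant of the list, rose by 0.89 ± 0.26 (adjusted p = 0.0092, the authors' deposited table).

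Atf3, a stress-induced transcription factor gene of that list, fell by 0.79 ± 0.26 (adjusted p = 0.027, the authors' deposited table), but no longer passed without the length and GC trends (adjusted p = 0.069). Ddit3, which encodes CHOP, did not pass and stood at -0.12 ± 0.21, and neither did Trib3 at -0.39 ± 0.38 and Chac1 at -0.45 ± 0.35 (adjusted p = 0.77, 0.56 and 0.43, the authors' deposited table). Trib3 and Chac1 were low, with means of 27.1 and 87.6 normalised reads. None of the 16 genes of the eIF2 kinases, eIF2 and its exchange factor passed the authors' DESeq2 test, with a median of -0.13. At an unadjusted p under 0.05, 1 was lower (6.25%) and 0 higher, against 11.4% and 14.2% of all tested genes. Gcn1l1, an activator of the amino acid sensing kinase, stood at 0.17 ± 0.13 and Ppp1r15b, with the most reads of the list, at 0.10 ± 0.15 (adjusted p = 0.45 and 0.74, the authors' deposited table).

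**Figure D4:**
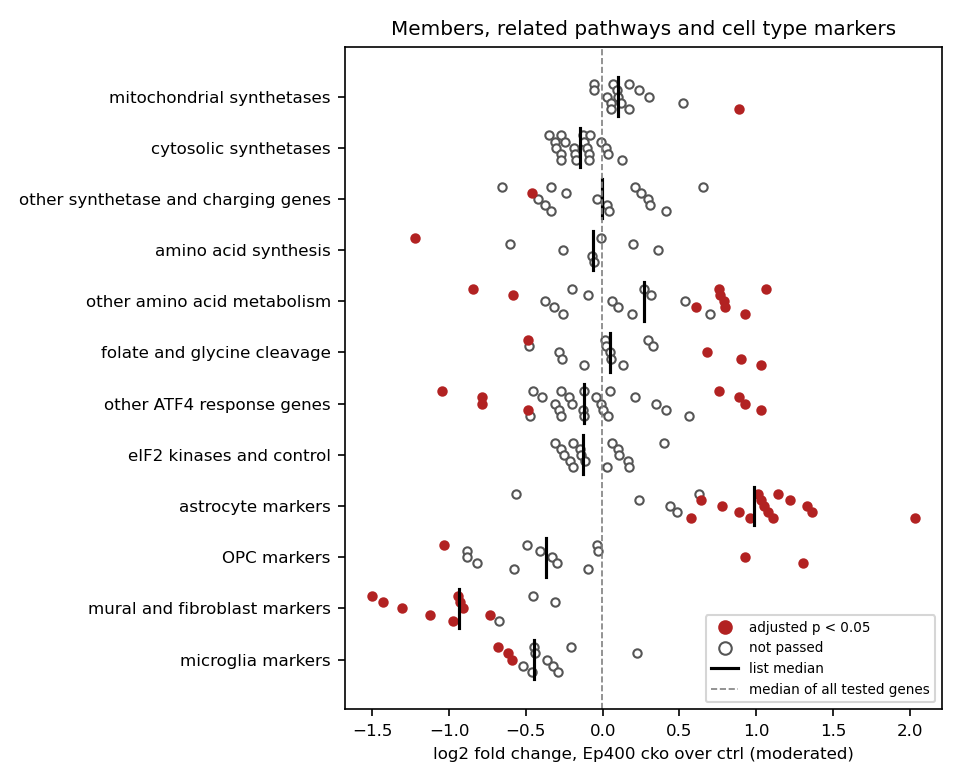
Log2 fold change of Ep400 cko over ctrl in the authors' deposited table for the synthetases, the amino acid synthesis genes, related lists and 4 marker lists, with list medians as bars. The medians run from -0.93 in mural and fibroblast markers to 0.98 in astrocyte markers, while both synthetase classes lie close to 0.

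The fold changes were last set beside the promoter matches shown at the outset. The 7 members with a match, of which 5 are cytosolic synthetases and 2 make amino acids, had a median of -0.31, against 0.04 for the 29 members whose promoter held none. All 7 lay below 0, from -1.22 for Pycr1 to -0.09 for Iars in the authors' deposited table, and Pycr1 was the only member of the 7 that passed. Within the cytosolic synthetases the median was -0.30 for the 5 with a match and -0.05 for the 8 without. Of those 8, 62.5% lay below 0, as did 17 of all 20 cytosolic synthetases. The cytosolic synthetases whose promoters were not used all lay below 0 too, from -0.27 for Lars to -0.09 for Cars. None of the 14 mitochondrial synthetases with a promoter held the core, which only 2.95% of all tested genes with a promoter held. Over all tested genes with a promoter, the median was -0.05 for the 403 with a match and -0.01 for the 13267 without. Phgdh, Psat1 and Atf4 held no match in this window.

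**Figure D5:**
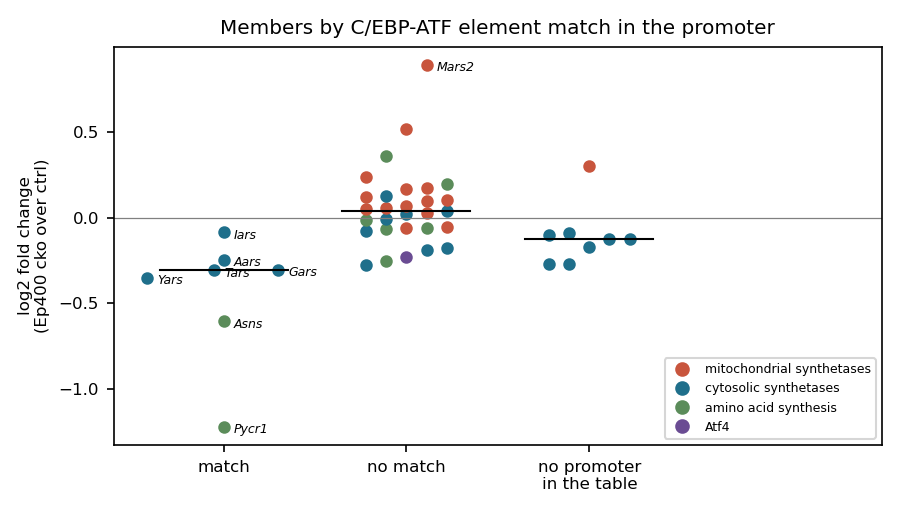
Log2 fold change of Ep400 cko over ctrl in the authors' deposited table for members whose promoter held the C/EBP-ATF core, whose promoter held none, and that had no promoter in the sequence table, with medians as bars. The 7 members with a match lie between -1.22 and -0.09.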

How the data were processed

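Total RNA of 6 samples (3 Ep400 cko, 3 ctrl) was made into stranded mRNA libraries, per the labels' protocols. The submitters' processing notes name STAR 2.5.1, HTSeq, DESeq2 and the build mm10. Whether HTSeq used strand is not stated there. Gene identifiers are of Ensembl release 85, per the file headers. The deposited table is the authors' own comparison and holds 0 per-sample columns. Each gene has the authors' deposited mean signal, a normalised read count over all libraries, although the header speaks of raw counts. Their deposited log2 fold change and SE are moderated towards 0, and the deposited score is the Wald statistic. The deposited p-value is two-sided and was adjusted by Benjamini-Hochberg over 20101 genes. The direction, cko over ctrl, is given by the name of the table alone.

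The authors' test at an adjusted p under 0.05 is the main result, because a count model could not be fitted without values per sample. The 95% intervals are the fold change with the normal quantile times the SE. The p-values set each fold change against its SE in the authors' model of these 6 samples. The spread between single samples cannot be seen in the deposited values. Exon lengths and GC content came from GENCODE M21 (GRCm38), matched for 48058 genes, and promoters from RefSeq (GRCm38.p6). Promoters of Cars, Hars, Hars2, Lars, Nars, Rars, Vars and Wars were not used here. Python 3.11.15 with numpy 2.4.6, pandas 2.3.3, scipy 1.17.1 and patsy 1.0.2 was used, and the adjustment and trend removal (spline df 5) were tested on simulated data.

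Members, gene lists, the motif and tests were chosen with earlier results of these data known. All members may be named, and of other lists up to 4 passing genes with the smallest adjusted p, the gene with the most reads and 9 fixed names (Ep400, Ddit3, Trib3, Chac1, Slc7a11, Mthfd2, Gldc, Aldh1l1 and Glul). Pycrl, Oat, Asrgl1, Aimp2, Pars2, Gcn1l1, Atf3, Pdgfra, Olig2 and the overlapping genes lie outside this rule or were chosen after their values were seen. Some genes and sites of these lists are not reported here.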

Additional observations from a re-analysis of the deposited data

How the results depend on the processing

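Alternatives were no filter on low genes, a mean of at least 50, removal of trends in transcript length and GC content, centring on the median gene, adjusted p under 0.1 and under 0.01, and a trend with level removed, the last chosen after seeing the data. With length and GC trends removed, 0 members and so 0 mitochondrial synthetases rose, as Mars2 stood at 0.54 (adjusted p = 0.11). There Psat1, Sars2 and Shmt2, none of which passed in either form, changed sign to 0.013, 0.036 and 0.016. The other 40 members kept their direction and side of the threshold there, as did all 44 under the other 6 alternatives. The median of the cytosolic synthetases ran from -0.16 to -0.13, that of the mitochondrial synthetases from 0.10 to 0.12 and that of amino acid synthesis from -0.07 to -0.01. The number of all genes that passed at an adjusted p under 0.05 was 2103 with no filter and 2082 with length and GC trends removed, against 2462. Leaving out single libraries was not run. No paired analysis was possible because the table carries no values per sample. Without them, whether 1 library sets a fold change was not analysed here.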

Other observations

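Of the 44 members, 16 share exon bases with another annotated gene and 28 share none, Mars2 and Pycr1 among them. Exons of 9 members overlap by more than 200 bases. The longest overlap on the opposite strand was that of Iars2 with Rab3gap2, at 2034 bases, and Rab3gap2 stood at 0.51 (adjusted p = 0.060, the authors' deposited table). Hars2 and Hars start on opposite strands and share 195 exon bases, with 0.30 for Hars2 and -0.17 for Hars in the authors' deposited table. Mars shares 68 exon bases with Ddit3 on the opposite strand. Shmt2, at -0.06, shares 32 exon bases with Ndufa4l2, which fell by 1.09 (adjusted p = 0.00041, the authors' deposited table). Aars shares 1326 exon bases with Exosc6 on the same strand, and Exosc6 is listed at 0 in the authors' deposited table. The part of such shared bases in the members' values was not tested.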
